A study of Mus musculus with 9 samples.

Results

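The clustered histone genes are the replication-dependent histone genes that sit together in the genome, and they were taken here as every row of the deposited liver gene table whose symbol begins with Hist1h, Hist2h, Hist3h or Hist4h. That rule found 70 genes among the 49585 rows of the table. Of these, 44 had 20 or more counts over the 9 libraries together and are named below, 17 had 1 to 19 counts, and 9 had 0. By symbol, the 70 genes divide into 6 linker histone H1 genes, 20 H2A, 19 H2B, 12 H3 and 13 H4 genes. The GENCODE M21 annotation lists 3 of the 70 as pseudogenes, Hist1h2aj, Hist1h2al and Hist3h2bb-ps, which had 0, 1 and 0 counts. On mouse build GRCm38, 56 lie on chromosome 13, 10 on chromosome 3, 3 on chromosome 11 and 1 on chromosome 6.

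The libraries came from livers of 14-week-old male C57BL/6J mice. The MG (microgravity) and AG (artificial gravity) mice were flown to the International Space Station and kept there for about 35 days, 6 mice in each group, and livers were taken 2 days after return to Earth. The AG mice were held at 1 g in orbit by a centrifuge turning at 77 rpm, whereas the MG mice floated. The GC (ground control) mice were kept for 35 days at 1 g in a laboratory in Japan under matched housing. Each group has 3 libraries, and the labels do not tie a library to a single mouse, so the p-values below measure the spread between these libraries. Launch, landing and the days after landing were shared by MG and AG mice and not by GC mice, and flown and ground mice came from different suppliers, so flight, supplier and place cannot be told apart in a comparison with GC. Total RNA, about 500 ng per library, was depleted of ribosomal RNA and not selected for poly(A) tails.

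Replication-dependent histone mRNAs are the known exception among animal mRNAs in that most end in a short stem-loop and carry no poly(A) tail. The stem-loop is bound by the protein Slbp, and the end is cut with the help of the U7 small nuclear RNA, so these transcripts are largely lost from poly(A)-selected libraries and kept when only ribosomal RNA is removed. H3 with H4, and H2A with H2B, form the protein core of the nucleosome, and H1 binds the DNA that enters and leaves it. Synthesis of these mRNAs is coupled to DNA replication, and most cells of an adult liver are not dividing, although some clustered genes, several H1 and H2B genes among them, are known to be transcribed outside S phase, in part as polyadenylated mRNA.

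The stem-loop letters were read from the GENCODE M21 transcript models of GRCm38 and are shown because they define the class of transcript. The letters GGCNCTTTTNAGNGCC, searched on the transcript strand only, were found in a model of 42 of the 70 genes and 33 of the 44 named genes. Over all genes with a transcript in that annotation, 47 of 55341 held them, or 0.0849%, and 5 of those 47 were not clustered histone genes. In the elements below, the stem-loop is in capitals and up to 5 flanking bases on each side are in lower case, written 5′ to 3′ as DNA.
Hist1h1c, chr13:23739507-23739532, plus strand: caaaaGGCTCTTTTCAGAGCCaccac
Hist1h1e, chr13:23621777-23621802, minus strand: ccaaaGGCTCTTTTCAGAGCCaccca
Hist1h2ab, chr13:23751567-23751592, plus strand: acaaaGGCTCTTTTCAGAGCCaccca
Hist1h2be, chr13:23585526-23585551, minus strand: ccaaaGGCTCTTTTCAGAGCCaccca
Hist1h3e, chr13:23561898-23561923, minus strand: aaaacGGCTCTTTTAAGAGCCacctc
Hist2h2ac, chr3:96220413-96220438, minus strand: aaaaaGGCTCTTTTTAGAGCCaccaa
Hist1h4h, chr13:23531453-23531478, plus strand: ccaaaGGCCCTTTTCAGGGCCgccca
Hist2h4, chr3:96262934-96262959, minus strand: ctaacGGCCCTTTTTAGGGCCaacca
The most frequent form, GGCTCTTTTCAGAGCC, was in 26 genes, and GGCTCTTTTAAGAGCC was in 6 and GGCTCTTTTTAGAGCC in 1. The forms with a GGCCC stem were in H4 genes alone, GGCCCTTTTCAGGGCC in 7 and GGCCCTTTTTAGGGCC in 2, and the 9 H4 genes with a match had no other form. The element began 24 bases after the stop codon in Hist1h1c and 40 bases after it in Hist1h1e. In 24 of the 42 genes the annotated model ran on for more than 50 bases past the stem-loop. In 15 an AATAAA or ATTAAA hexamer, the letters of a polyadenylation signal, followed it at any distance. The share expected for so short a word was not tested. These models are not always those behind the counts: the deposited gene end equalled the annotated end for 52 of the 70 genes. Hist1h1d has 7425 bases in GENCODE and a deposited exon length of 744. No match was found in the models of Hist1h2bc, Hist2h2be, Hist1h4a, Hist1h4j, Hist1h4k, Hist1h1a, Hist1h1b, Hist1h2af, Hist1h2ak, Hist1h3g and Hist1h3i, the other 11 named genes, which says only that these letters are not in those models.

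Hepatocyte genes were high in every library: all 12 on the list were detected, and they summed to between 112609 and 148681 CPM, the usual unit of counts scaled to the library total, here after TMM scaling, a normalization of library totals. Libraries held 6194521 to 8957331 counts, so that 3 counts corresponded to 0.339 to 0.472 CPM. Some libraries stood apart from the rest of their group. Kupffer cell and macrophage genes summed to 1444 CPM in AG 1 and to between 292 and 394 CPM in the other 8 libraries, and 10 skeletal muscle genes summed to 403 CPM in MG 2, 198 CPM in GC 1 and 572 CPM in GC 2, against 80.1 CPM in AG 1, 14.1 CPM in AG 3 and less than 1 CPM in MG 1, MG 3, AG 2 and GC 3. The neutrophil list had no gene tested, and its marker Ly6g was at 0 in all libraries.

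The clustered histone genes together held 51791 counts, between 0.0586% and 0.113% of the counts of a library. Their summed level was 592, 690 and 1144 CPM in MG livers 1, 2 and 3, 685, 613 and 966 CPM in AG livers, and 667, 860 and 818 CPM in GC livers. The means were 809 ± 294 CPM in MG, 755 ± 187 CPM in AG and 782 ± 102 CPM in GC (SD, n = 3 each), and the ranges of the 3 groups overlapped. MG 3 and AG 3 were the highest libraries, and in each flight group the other libraries lay below GC 2 and GC 3. In a bulk sample, fewer cells that carry a transcript and less of it per cell cannot be told apart.

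The counts were unevenly spread over the genes. Hist1h1c alone held 26.3% of them, the 3 leading genes 55.1% and the 8 leading genes 85.4%. By class, H1 genes held 43.1% of the counts, H4 genes 32.2%, H2B genes 18.3%, H3 genes 3.80% and H2A genes 2.59%. Level per length gave another order: on the scale of CPM per kilobase of the exon length in the table, Hist1h4h had 173, Hist1h2bc 171, Hist1h4d 156, Hist1h4c 138, Hist1h1c 133 and Hist1h1e 132, followed by Hist1h1d with 34.7 and Hist1h4a with 22.7. These per-length levels rest on gene models of very unequal length, from 312 bases for Hist1h4k to 2863 bases for Hist4h4.

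**Figure D1:**
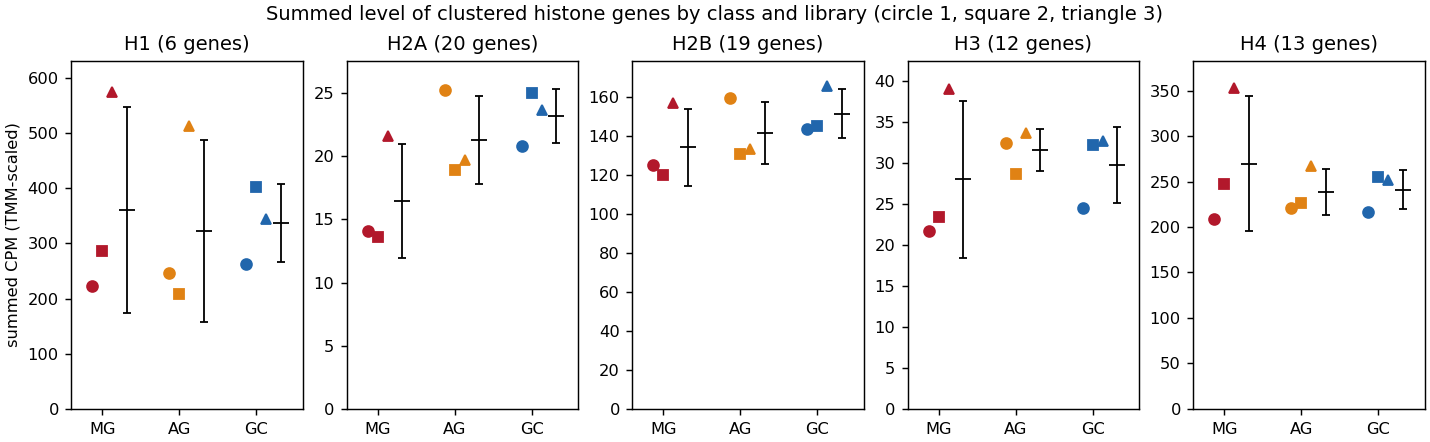
Summed CPM of the clustered histone genes of each class (vertical axis) in MG, AG and GC livers (horizontal axis), with 1 point per library and black bars for the mean ± SD of 3 libraries. H1 reached 574 CPM in MG 3 and 512 CPM in AG 3, and the other libraries lay between 208 and 403 CPM.

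The H1 class carried most of the difference between libraries. H1 genes summed to 222, 286 and 574 CPM in MG livers, 247, 208 and 512 CPM in AG livers, and 262, 403 and 345 CPM in GC livers. Without the H1 genes, the remaining 64 genes summed to 370, 404 and 570 CPM in MG livers, 438, 405 and 454 CPM in AG livers, and 405, 458 and 473 CPM in GC livers. AG 3 was therefore high in H1 genes and within the GC range for the rest, whereas MG 3 was the highest library for both. H4 genes summed to 209, 247 and 353 CPM in MG livers, 221, 226 and 267 CPM in AG livers, and 216, 255 and 251 CPM in GC livers. H2B genes summed to 125, 120 and 157 CPM in MG livers, 160, 131 and 133 CPM in AG livers, and 143, 145 and 166 CPM in GC livers. H2A genes gave 14.1, 13.6 and 21.6 CPM in MG livers, 25.3, 18.9 and 19.7 CPM in AG livers, and 20.8, 25.01 and 23.7 CPM in GC livers, so that for H2A and H2B alike MG 1 and MG 2 were below every GC library and MG 3 was inside the GC range. H3 genes gave 21.7, 23.4 and 39.0 CPM in MG livers, 32.4, 28.7 and 33.7 CPM in AG livers, and 24.5, 32.2 and 32.7 CPM in GC livers.

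Among the linker histones, Hist1h1c (chr13:23738808-23740367, 1 exon) was at 134, 177 and 386 CPM in MG livers, 139, 114 and 327 CPM in AG livers, and 157, 228 and 204 CPM in GC livers. Hist1h1e was at 70.8, 87.0 and 124 CPM in MG livers, 84.8, 71.6 and 132 CPM in AG livers, and 81.7, 129 and 108 CPM in GC livers. Hist1h1d was at 13.3, 16.3 and 46.5 CPM in MG livers, 13.7, 15.9 and 44.4 CPM in AG livers, and 18.5, 38.2 and 25.3 CPM in GC livers. All 3 genes were lowest in MG 1 or AG 2, MG 3 and AG 3 were above the other libraries of their groups, and the GC libraries lay within the range of the flown ones, so the groups overlapped. Hist1h1a was at 2.71, 3.77 and 12.7 CPM in MG livers, 6.39, 5.09 and 5.66 CPM in AG livers, and 2.81, 5.03 and 4.79 CPM in GC livers. AG livers were all above GC livers for Hist1h1a, while the MG group spanned both. Hist1h1b, the fifth H1 gene tested, ranged from 0.869 CPM in AG 2 to 3.56 CPM in MG 3, and Hist1h1t, a linker histone known from the testis, had 10 counts in all.

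The H1 genes share promoter letters that few other clustered genes hold. In RefSeq promoter windows of GRCm38.p6, 250 bases before to 50 after the annotated start, 61 of the 70 genes matched by symbol or synonym and gave 62 windows. The letters AAACACA on either strand, known in H1 promoters as the H1 box, were in the window of 5 of 6 H1 genes, 2 of 17 H2A windows, 2 of 17 H2B windows, 0 of 10 H3 windows and 0 of 12 H4 windows, against 7.18% of all 32851 windows. CCAAT on either strand was in 6 of 6 H1, 17 of 17 H2A, 17 of 17 H2B, 10 of 10 H3 and 3 of 12 H4 windows, against 37.4% of all windows. TATAAA on either strand was in 35 of the 62 windows against 13.6% of all, and the octamer ATTTGCAT on either strand was in 7 H2A and 7 H2B windows and in no H1, H3 or H4 window, against 1.74% of all. The 130 bases before the start of the 3 most abundant H1 genes and of Hist1h1a, which lacks the H1 box letters, follow, with all of these letters in capitals.
Hist1h1c, chr13:23738677-23738806, plus strand: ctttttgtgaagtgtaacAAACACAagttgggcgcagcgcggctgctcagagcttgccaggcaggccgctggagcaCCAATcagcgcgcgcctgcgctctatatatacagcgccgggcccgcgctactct
Hist1h1e, chr13:23622559-23622688, minus strand: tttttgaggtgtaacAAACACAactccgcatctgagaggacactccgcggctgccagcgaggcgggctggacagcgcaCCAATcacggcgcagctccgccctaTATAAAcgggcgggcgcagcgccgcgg
Hist1h1d, chr13:23554902-23555031, plus strand: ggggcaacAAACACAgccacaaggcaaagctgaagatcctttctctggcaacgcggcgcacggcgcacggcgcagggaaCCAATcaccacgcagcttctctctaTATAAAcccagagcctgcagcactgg
Hist1h1a, chr13:23763538-23763667, plus strand: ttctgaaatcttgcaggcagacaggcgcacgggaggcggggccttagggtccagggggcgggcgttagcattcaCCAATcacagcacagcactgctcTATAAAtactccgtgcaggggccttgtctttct
In Hist1h1c, Hist1h1e and Hist1h1d the order from the far end was H1 box letters, then CCAAT, then the gene start, and Hist1h1e and Hist1h1d had TATAAA between CCAAT and the start.

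**Figure D2:**
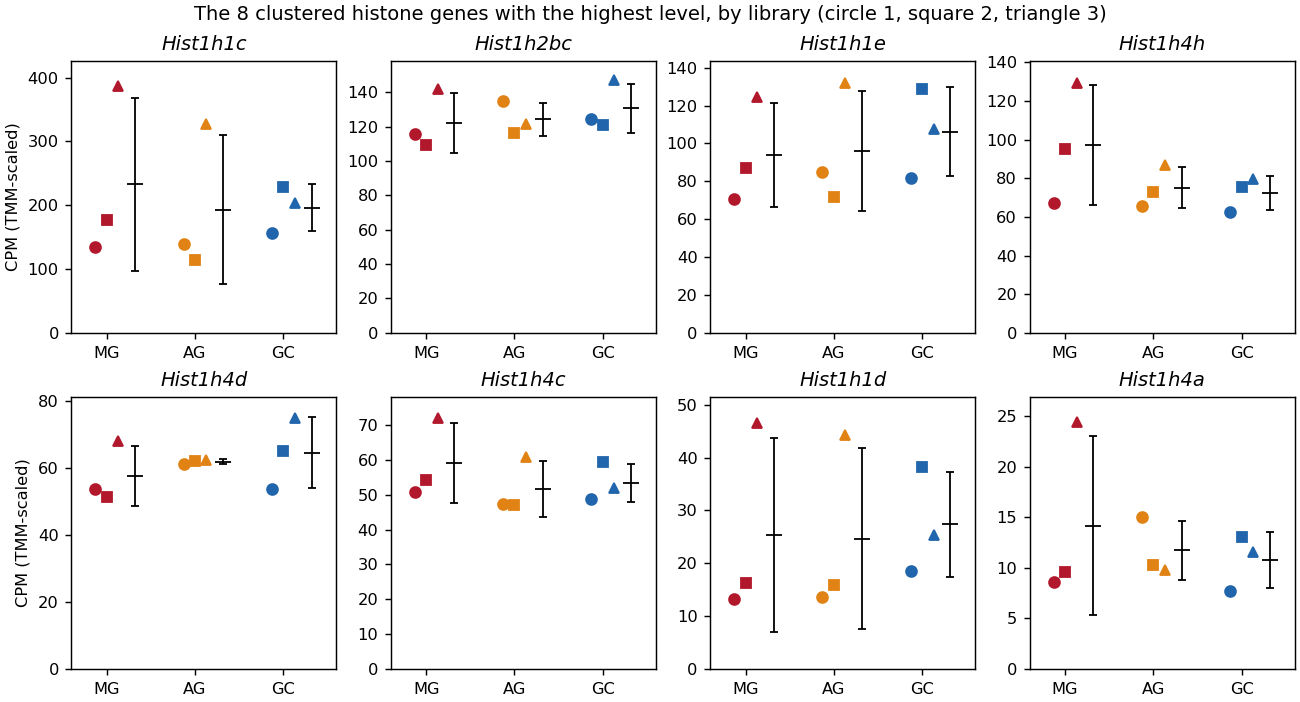
CPM of the 8 clustered histone genes with the highest mean level (vertical axes differ between panels and start at 0) in MG, AG and GC livers, with 1 point per library and black bars for the mean ± SD of 3 libraries. Hist1h1c and Hist1h1d were highest in MG 3 and AG 3, whereas Hist1h2bc kept within 109 to 147 CPM in all libraries.

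Among the core histones, the H2B gene Hist1h2bc (chr13:23684199-23692488) had 115, 109 and 142 CPM in MG livers, 135, 116 and 121 CPM in AG livers, and 124, 121 and 147 CPM in GC livers. It was one of the steadiest of the 8 leading genes and one of the few with a spliced model, with 1484 reads across exon junctions. The H4 gene Hist1h4h had 67.2, 95.02 and 129 CPM in MG livers, 65.9, 72.9 and 86.9 CPM in AG livers, and 62.3, 75.5 and 79.4 CPM in GC livers. Hist1h4d had 53.6, 51.3 and 68.0 CPM in MG livers, 61.2, 62.2 and 62.4 CPM in AG livers, and 53.8, 65.0 and 75.1 CPM in GC livers. The H4 genes encode the same small core protein from separate copies, and their levels did not move in step: Hist1h4h was highest in MG 3 and Hist1h4d in GC 3. Hist1h4c had 50.8, 54.2 and 72.1 CPM in MG livers, 47.2, 46.9 and 60.7 CPM in AG livers, and 48.7, 59.3 and 52.0 CPM in GC livers. Hist1h4a had 8.58, 9.55 and 24.4 CPM in MG livers, 15.1, 10.3 and 9.79 CPM in AG livers, and 7.73, 13.0 and 11.5 CPM in GC livers. In all 5 genes of this paragraph the 3 groups overlapped.

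A set of 31 clustered histone genes had enough counts to be tested with the 11884 genes of the table that passed the same filter, namely 5 H1, 4 H2A, 5 H2B, 5 H3 and 12 H4 genes. The test was edgeR's quasi-likelihood test over all 9 libraries with Benjamini-Hochberg adjustment over all genes tested, and a gene was called at an adjusted p below 0.05. In MG against GC livers, 0 of the 31 clustered histone genes were called, beside 1.39% of all genes tested (165 of 11884). In AG against GC livers and in MG against AG livers, 0 of 31 were called, beside 0% of all genes tested in both. With DESeq2 the number of clustered histone genes called was also 0 in each comparison, beside 3.22% of all genes in MG against GC, 0.969% in AG against GC and 0.817% in MG against AG. With limma-voom it was 0 as well, beside 1.31%, 0% and 0.0168% of all genes in the same order. At an unadjusted p below 0.05, 4 of the 31 passed in MG against GC livers, all lower in MG, beside 13.9% of all genes in either direction and 6.6% lower. In AG against GC livers 1 passed, Hist2h2be with AG lower, beside 10.1% of all genes in either direction and 4.58% lower. In MG against AG livers 1 passed, Hist1h2ab with MG lower, beside 9.79% in either direction and 5.76% lower. The median log2 fold change of the 31 was -0.08 in MG against GC, -0.05 in AG against GC and -0.10 in MG against AG, where all genes tested had medians of 0.01, 0.01 and 0.00. The comparisons share libraries, so these medians are not independent. Each median of the 31 changed sign when 1 library was left out. In MG against GC it was 0.11 without MG 1 and 0.02 without MG 2. In AG against GC it was 0.02 without GC 2 and 0.08 without AG 2, and in MG against AG it was 0.08 without MG 1, 0.04 without MG 2 and 0.05 without AG 3.

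**Figure D3:**
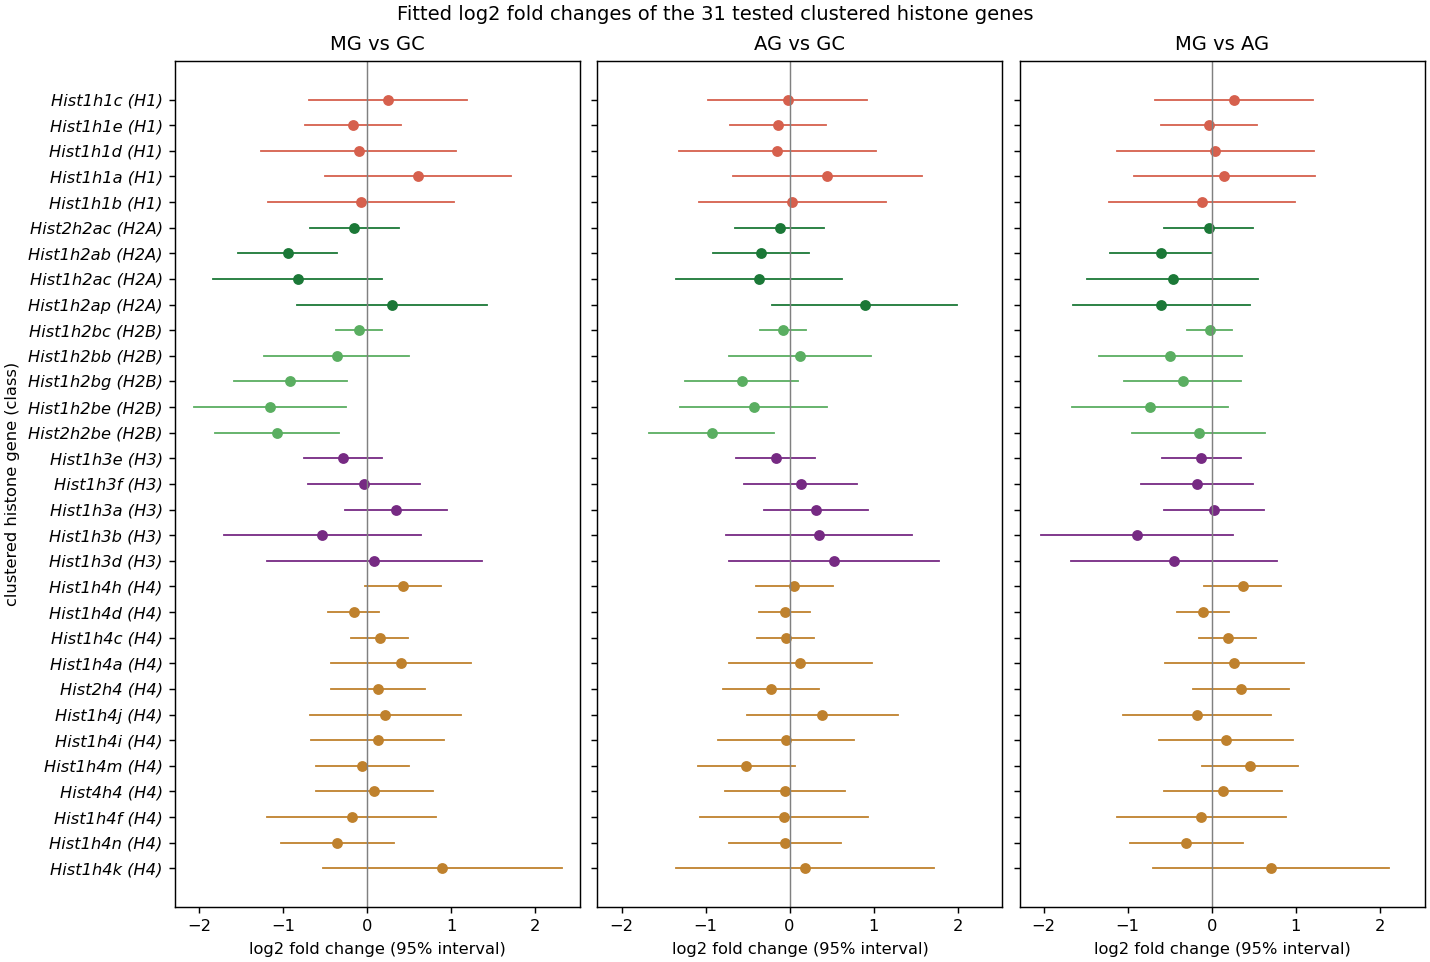
Fitted log2 fold changes (horizontal axes) of the 31 tested clustered histone genes (rows, coloured by class) in MG against GC, AG against GC and MG against AG livers, with points for the estimates and lines for 95% intervals. In MG against GC the 5 H2B genes lie left of 0 and 8 of the 12 H4 genes right of it, and no gene was called.

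The 4 genes lower in MG than in GC livers at an unadjusted p below 0.05 were 3 H2B genes and 1 H2A gene. Hist2h2be, an H2B gene on chromosome 3 (chr3:96221119-96223738), had 1.24, 1.63 and 0.791 CPM in MG livers, 1.37, 1.49 and 1.22 CPM in AG livers, and 2.46, 2.99 and 2.40 CPM in GC livers. Both flown groups were below every GC library for this gene. Its log2 fold change was -1.08 ± 0.34 in MG against GC (SE, adjusted p = 0.167 in edgeR's quasi-likelihood test) and -0.93 ± 0.34 in AG against GC (adjusted p = 0.431 in the same test). Hist1h2be had 1.69, 1.38 and 3.03 CPM in MG livers, 4.72, 1.99 and 3.52 CPM in AG livers, and 4.10, 6.29 and 3.30 CPM in GC livers. Its log2 fold change in MG against GC was -1.16 ± 0.41 (SE, adjusted p = 0.233, edgeR), and the AG livers spanned MG and GC levels. In the GENCODE annotation, the model of Hist1h2be overlaps that of Hist1h1e on the same strand by 496 bases. The spans in the deposited table do not overlap, as that of Hist1h2be ends at 23621124 and that of Hist1h1e starts at 23621755. What the GENCODE overlap means for the reads of Hist1h2be was not tested. Hist1h2bg had 1.92, 2.64 and 3.43 CPM in MG livers, 4.57, 3.10 and 2.45 CPM in AG livers, and 5.04, 5.66 and 4.35 CPM in GC livers. Its log2 fold change was -0.92 ± 0.31 in MG against GC (SE, adjusted p = 0.203, edgeR) and -0.57 ± 0.30 in AG against GC (adjusted p = 0.545, edgeR). The H2A gene Hist1h2ab, singled out after its values were seen because its p was the smallest among the 31, had 1.92, 2.14 and 2.51 CPM in MG livers, 3.65, 3.85 and 2.45 CPM in AG livers, and 4.10, 3.93 and 4.64 CPM in GC livers. Its model overlaps an annotated gene on the opposite strand by 138 bases. Its log2 fold change was -0.95 ± 0.27 in MG against GC (SE, adjusted p = 0.1304, edgeR) and -0.61 ± 0.27 in MG against AG (adjusted p = 0.504, edgeR). In each of these 4 genes every MG library lay below every GC library. Libraries of these groups stood apart in that way in 23.1% of all genes tested in one direction or the other and in 11.3% with MG lower.

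These 4 genes are among the less abundant members, at 115 to 243 counts in total, and the 8 most abundant members had log2 fold changes between -0.17 and 0.42. In MG against GC, the log2 fold change was 0.24 ± 0.43 for Hist1h1c, -0.10 ± 0.12 for Hist1h2bc, -0.17 ± 0.26 for Hist1h1e and 0.42 ± 0.21 for Hist1h4h (SE each). Hist1h4d had -0.16 ± 0.14, Hist1h4c 0.15 ± 0.15, Hist1h1d -0.11 ± 0.53 and Hist1h4a 0.40 ± 0.38 on the same log2 scale. The 95% interval for Hist1h2bc in MG against GC ran from -0.37 to 0.17 and for Hist1h4d from -0.47 to 0.14, while that for Hist1h1c ran from -0.70 to 1.19. The intervals of Hist1h2bc and Hist1h4d left out a 2-fold change either way, whereas that of Hist1h1c held a 2-fold higher level in MG. By class in MG against GC, 0 of 5 H2B, 1 of 4 H2A, 2 of 5 H1, 2 of 5 H3 and 8 of 12 H4 genes had a positive log2 fold change.

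The remaining extremes were genes of few counts. Hist1h4k, at 76 counts in total, had 0.677, 1.51 and 2.64 CPM in MG livers, 1.07, 0.372 and 1.53 CPM in AG livers, and 0.468, 0.629 and 1.498 CPM in GC livers. Its log2 fold changes of 0.89 ± 0.64 in MG against GC and 0.71 ± 0.63 in MG against AG (SE) were the largest positive ones in those comparisons, with wide overlap between groups. Hist1h1a followed in MG against GC, at 0.60 ± 0.50, which rested on MG 3: without that library it was -0.37. Hist1h4m had 4.97, 4.65 and 6.33 CPM in MG livers, 4.11, 3.97 and 3.52 CPM in AG livers, and 7.26, 5.19 and 4.05 CPM in GC livers. It was the only tested clustered gene whose MG and AG libraries did not overlap, beside 12.4% of all genes in either direction and 6.4% with MG higher, with a log2 fold change of 0.45 ± 0.26 in MG against AG (SE, adjusted p = 0.593, edgeR). Only 21.6% of its total exon reads were unique. Total exon reads gave it 0.75 in that comparison and gave its near copy Hist1h4n -0.16. Hist1h2ap had 1.58, 0.754 and 1.05 CPM in MG livers, 1.83, 0.993 and 2.45 CPM in AG livers, and 1.05, 1.26 and 0.450 CPM in GC livers. Hist1h3d had 0.790, 0.754 and 1.71 CPM in MG livers, 2.59, 1.24 and 0.612 CPM in AG livers, and 1.05, 0.629 and 1.35 CPM in GC livers. These were the highest in AG against GC, with log2 fold changes of 0.90 ± 0.50 for Hist1h2ap and 0.53 ± 0.57 for Hist1h3d (SE), and in both the groups overlapped. Only 24.8% of the total exon reads of Hist1h2ap were unique, and total exon reads gave it 0.58 in that comparison. Without AG 1 the value for Hist1h3d was -0.10. Hist1h3b had 0.339, 1.13 and 1.19 CPM in MG livers, 1.98, 1.12 and 1.84 CPM in AG livers, and 0.820, 1.10 and 1.95 CPM in GC livers, and its log2 fold change in MG against AG was -0.89 ± 0.52 (SE), the lowest there, followed by Hist1h2be at -0.73 ± 0.42. Of the total exon reads of Hist1h3b, 36.0% were unique, and total exon reads gave it -0.44 in that comparison. In AG against GC, 3 tested genes had groups that did not overlap, Hist1h1a with AG higher and Hist2h2be and Hist1h2ab with AG lower, beside 14.4% of all genes.

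**Figure D4:**
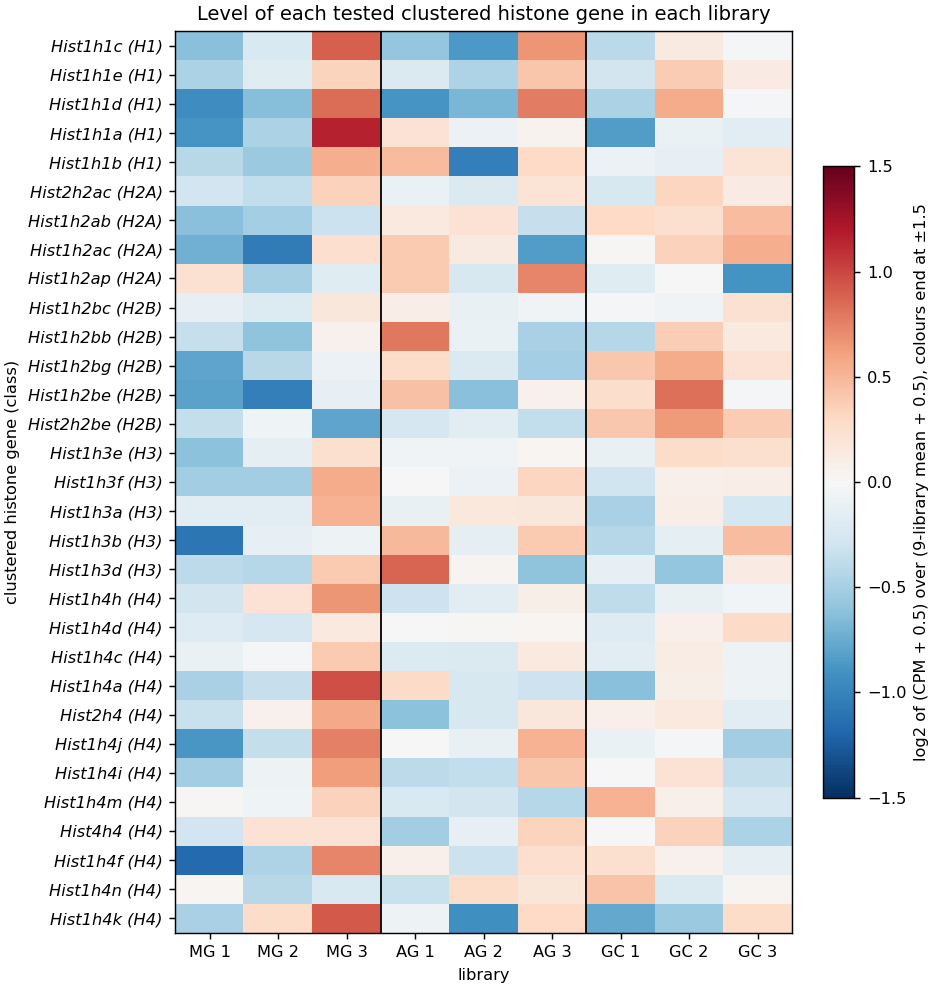
Level of each of the 31 tested clustered histone genes (rows, by class) in each library (columns), as the log2 of CPM + 0.5 over the 9-library mean + 0.5, with colours ending at ±1.5. The column of MG 3 is the reddest for H1 and H4 rows, and MG 1 and MG 2 hold the bluest cells of many rows.

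Of the 31 tested genes, 15 were highest in MG 3, among them 4 of 5 H1 and 8 of 12 H4 genes but 0 of 5 H2B genes, whereas 14.1% of all genes tested were highest in that library. The other MG libraries held no maximum of a clustered gene, and MG 1 held the minimum of 11 and MG 2 of 7. Without MG 3, 26 of 30 tested clustered genes had a negative log2 fold change in MG against GC. The median over all genes tested was 0.00 in that fit. At an unadjusted p below 0.05, 8 passed, all lower, beside 11.9% of all genes in either direction and 5.94% lower. After adjustment 0 of the 30 were called, beside 63 of 12071 genes. MG 3 was the highest library for 15 of the 31, so lower MG values without it follow in part from leaving it out. Without MG 1, and likewise without MG 2, 15 of 31 had a negative log2 fold change in MG against GC. The direction over these genes therefore turned on which MG library was left out. At an unadjusted p below 0.05, 3 passed without MG 1, 2 lower and 1 higher, beside 12.4% of all genes in either direction. Without MG 2, 3 passed, all lower, beside 10.3% of all genes in either direction and 5.58% lower. Without MG 3 and AG 3 together, a choice made after seeing the data, 28 of 32 had a negative log2 fold change in MG against GC and 23 of 32 in AG against GC. Those libraries were picked because they held the highest summed levels of these same genes, so lower flown values without them follow from the choice. None of the 32 was called without them in any comparison. Of all 12135 genes tested there, 140 were called in MG against GC, 54 in AG against GC and 81 in MG against AG. Beside the high H1 level of MG 3 and AG 3, those libraries also had the highest sums of the 12 hepatocyte genes, 144833 and 148681 CPM, against 112609 to 132356 CPM in the other 7. S-phase and cell-cycle genes summed to 194 CPM in MG 3 and 178 CPM in AG 3, within the 165 to 211 CPM of the other libraries. The part of hepatocyte level in the H1 and H4 levels was not tested.

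Because the clustered genes are near copies of each other, many reads fit more than 1 of them. The deposited expression values of all 70 genes equalled their unique exon reads in every library, so reads that fit several genes were left out of the counts. The table also gives total exon reads, which include them: 75680 for the clustered genes, of which 68.4% were unique, against 84.7% over all genes. Among the 61 clustered genes with at least 20 total exon reads, 27 had fewer than 50% of them unique. The H2A class was the most affected, holding 2.59% of the counts of clustered genes and 15.0% of their total exon reads.

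**Figure D5:**
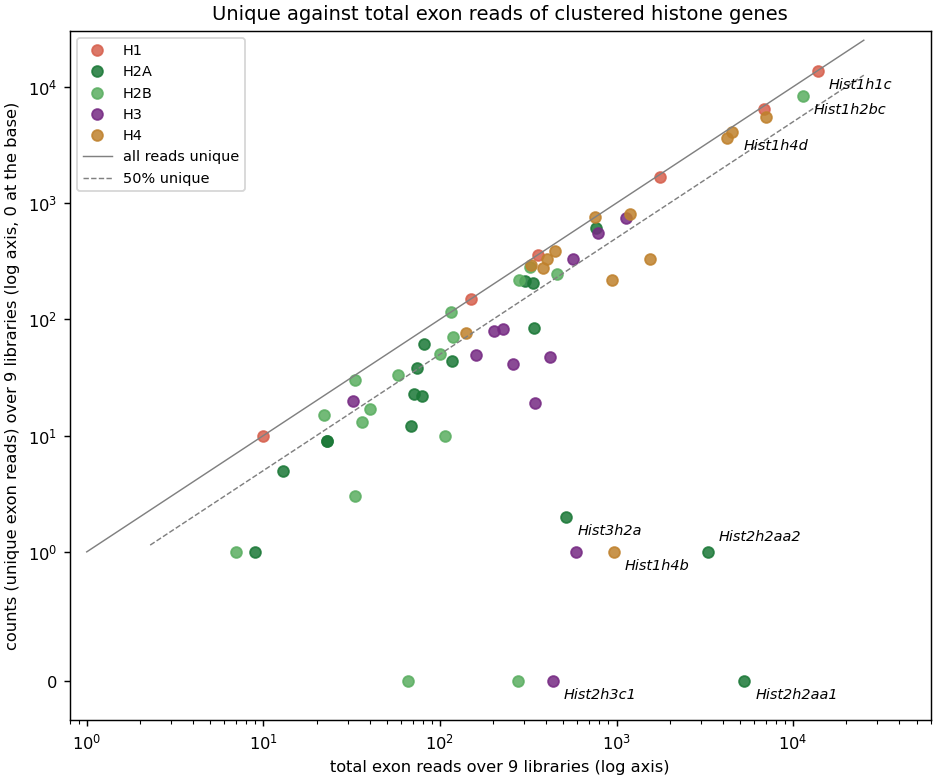
Counts over the 9 libraries (vertical axis, log scale with 0 at the base), which are unique exon reads, against total exon reads (horizontal axis, log scale) for the clustered histone genes with a total exon read, coloured by class. Hist2h2aa1 had 5289 total exon reads and 0 counts, and Hist2h2aa2 had 3279 total exon reads and 1 count, while Hist1h1c, with 13641 counts of 13753 total exon reads, lies close to the line where all reads are unique.

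Hist2h2aa1 and Hist2h2aa2, neighbouring H2A genes on chromosome 3, show the effect most fully. Their transcript models, of 586 and 528 bases, share an unbroken identical stretch of 528 bases, the whole length of the shorter one. The counts were 0 for Hist2h2aa1 and 1 for Hist2h2aa2, whereas their total exon reads were 5289 and 3279. How the authors divided such reads between the copies is not given in the sources used here, so their levels are compared as a sum. Scaled like the counts, the summed total exon reads of the pair were 123, 127 and 151 CPM in MG livers, 110, 124 and 130 CPM in AG livers, and 125, 126 and 132 CPM in GC livers. The groups overlapped. On the same measure, total exon reads, Hist1h2bc, the leading H2B gene, lay above the pair at 157 to 190 CPM. Hist2h3c1 and Hist2h3c2, H3 genes whose models share 666 identical bases, summed to 11.6, 9.68 and 6.86 CPM in MG livers, 13.2, 13.2 and 13.5 CPM in AG livers, and 13.9, 14.3 and 19.3 CPM in GC livers. For that pair every MG library was below every AG and GC library, a separation that, on counts, 12.4% of all genes tested showed between MG and AG and 23.1% between MG and GC in either direction. The pair was looked at because its reads are shared and was not tested by itself. Hist1h4m and Hist1h4n, H4 genes with 366 identical bases in a row, summed to 36.9, 37.1 and 52.0 CPM in MG livers, 34.1, 33.1 and 28.5 CPM in AG livers, and 41.5, 38.1 and 30.1 CPM in GC livers. Every MG library of that pair was above every AG library, and the GC libraries spanned both. On counts, 6.4% of all genes tested had MG above AG in that way, and this pair was not tested by itself either. Other clustered genes with nearly all reads shared were Hist1h4b, at 1 count of 966 total exon reads, Hist2h3b, at 1 of 588, and Hist3h2a, at 2 of 520, while Hist2h2bb, Hist2h3c1 and Hist1h2br had 278, 434 and 66 total exon reads and no count. With total exon reads in place of counts, 51 clustered genes could be tested and 0 were called in each comparison, beside 1.14% of all genes in MG against GC, 0% in AG against GC and 0% in MG against AG. Of the 51, 8 had an unadjusted p below 0.05 in MG against GC, all lower in MG. Over all genes, 13.6% passed in either direction and 6.83% passed with MG lower. The 4 genes above were among those 8, at log2 fold changes of -1.08 for Hist2h2be, -1.08 for Hist1h2be, -0.84 for Hist1h2bg and -0.87 for Hist1h2ab, and the others were Hist1h2ad, Hist1h2ae, Hist2h3b and Hist2h3c1. Total exon reads include the counted reads, so the values of those 4 genes are not independent of the earlier ones. All 115 total exon reads of Hist2h2be were unique. In AG against GC 3 passed beside 10.2% of all genes, Hist1h2ap with AG higher and Hist1h2bg and Hist2h2be with AG lower. In MG against AG 3 passed beside 9.67%, Hist1h4m and Hist2h2aa1 with MG higher and Hist1h2ap with MG lower. Hist2h2aa1 had a log2 fold change of 0.48, and its copy Hist2h2aa2 went the other way at -0.40. Hist1h4m was at 0.75 and its near copy Hist1h4n at -0.16. The part of the unknown division of shared reads in these values was not tested. The log2 fold change of Hist1h2ap there was -0.94 ± 0.23 (SE, adjusted p = 0.292, edgeR).

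The rest of the 44 named genes were low or middling in level. Hist2h4, Hist1h3e, Hist2h2ac, Hist1h3f and Hist1h4j had 751, 750, 608, 550 and 383 counts over the 9 libraries, and Hist1h3a, Hist1h4i, Hist4h4, Hist1h2bb, Hist1h4f, Hist1h4n and Hist1h2ac had between 205 and 332. All 12 were tested and none had an unadjusted p below 0.05 in any comparison. The tested genes that passed were described above and the 12 are what was left, so this is no result about them. Hist1h3e and Hist1h3f, the leading H3 genes, had mean levels of 10.3 and 7.94 CPM in MG livers, 11.2 and 8.92 CPM in AG livers, and 12.6 and 8.16 CPM in GC livers. Another 13 named genes, 5 H2A, 4 H2B and 4 H3, had between 20 and 71 counts and were too low to be tested: Hist1h2bj, Hist1h2ak, Hist1h2bk, Hist1h3c, Hist2h3c2, Hist1h2ag, Hist1h3i, Hist1h2ae, Hist1h2bf, Hist1h2bm, Hist1h2af, Hist1h2ad and Hist1h3g. Just inside the limit of 20 counts were Hist1h3g with 20 and Hist1h2ad with 22, and just outside it were Hist1h3h with 19 and Hist1h2bl with 17. Across the named genes, 9 overlap an annotated gene on the opposite strand in GENCODE, all of them H2A genes. No source used here says whether reads were counted by strand.

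Genes that make, carry or replace the clustered histones were read beside them. Of 22 genes for histone mRNA processing, 20 were in the table and 17 were tested, and 0 were called in any comparison. Slbp, the stem-loop binding protein, was at 11.3, 8.30 and 10.8 CPM in MG livers, 14.2, 9.06 and 9.64 CPM in AG livers, and 11.01, 13.2 and 11.1 CPM in GC livers, with overlap throughout. The 3 genes with the smallest p were Lsm10, a protein of the U7 particle, Upf1, an RNA helicase of mRNA decay, and Sympk, a scaffold of the cleavage complex. Lsm10 had a log2 fold change of 0.58 ± 0.20 in MG against AG (SE, adjusted p = 0.398, edgeR), Upf1 -0.18 ± 0.08 in AG against GC (adjusted p = 0.496, edgeR) and Sympk -0.17 ± 0.09 in MG against GC (adjusted p = 0.445, edgeR). The U7 RNA gene Rnu7 was listed at 0 counts in all libraries.

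Of 13 replication-independent histone genes, whose mRNAs are mostly polyadenylated and made outside S phase, although H2afx is known to give a stem-loop mRNA as well, 9 were tested and 0 were called. H1f0, the linker histone of resting cells, followed the clustered H1 genes in its highest libraries, at 98.3, 121 and 149 CPM in MG livers, 88.8, 86.3 and 138 CPM in AG livers, and 114, 128 and 117 CPM in GC livers. The 3 with the smallest p were Cenpa, the centromeric H3, H2afz and H2afv. Cenpa was at 1.69, 2.14 and 1.45 CPM in MG livers, 3.96, 3.23 and 2.14 CPM in AG livers, and 2.81, 3.62 and 4.94 CPM in GC livers, with a log2 fold change of -1.09 ± 0.34 in MG against GC (SE, adjusted p = 0.162, edgeR). H2afz had 0.28 ± 0.16 in MG against GC (adjusted p = 0.487, edgeR), and H2afv had -0.23 ± 0.14 in AG against GC (adjusted p = 0.589, edgeR). Of 16 histone chaperone genes, 15 were tested and 0 were called. Chaf1a, a subunit of the assembly factor that loads new H3 and H4 behind the replication fork, was at 1.47, 1.38 and 1.05 CPM in MG livers, 1.37, 1.24 and 1.38 CPM in AG livers, and 2.69, 2.04 and 2.25 CPM in GC livers. Both flown groups lay below GC for Chaf1a. Libraries stood apart with MG lower than GC in 11.3% of all genes tested, and in AG against GC in 14.4% in either direction. The log2 fold change of Chaf1a, at 111 counts in total, was -0.83 ± 0.31 in MG against GC (SE, adjusted p = 0.249, edgeR) and -0.81 ± 0.31 in AG against GC (adjusted p = 0.445, edgeR). Its partner Chaf1b had -0.69 ± 0.36 in MG against AG (adjusted p = 0.555, edgeR), and Supt16, a subunit of a chaperone that opens nucleosomes for transcription, had -0.19 ± 0.10 in AG against GC (adjusted p = 0.547, edgeR).

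Of 30 S-phase and cell-cycle genes, 25 were tested, and 1 fell in MG against GC, beside 0.841% of all genes, 0 in AG against GC and 0 in MG against AG. Ccnd1, the cyclin D1 of entry into the cell cycle, fell to 5.98, 8.04 and 9.76 CPM in MG livers, against 15.7, 22.0 and 17.8 CPM in GC livers, and AG livers had 18.7, 14.6 and 12.7 CPM. Its log2 fold change in MG against GC was -1.22 ± 0.21 (SE, adjusted p = 0.0225, edgeR). Among the proliferation markers, Mki67 was at 2.26, 5.53 and 3.69 CPM in MG livers, 13.1, 3.72 and 4.59 CPM in AG livers, and 6.09, 5.505 and 7.04 CPM in GC livers, with its maximum in AG 1, the library of high macrophage genes. The median log2 fold change of the 25 was -0.29 in MG against GC, 0.03 in AG against GC and -0.25 in MG against AG. A list of 10 other RNAs, taken here as lacking a usual poly(A) tail in at least 1 form, held 2 tested genes. These were the nuclear RNAs Malat1 and Neat1, neither of them called, and the other 8 were listed at 0 counts. The counted model of Neat1 is 3004 bases long, and whether its reads come from a form without a tail was not tested. Malat1 and Neat1 together were at 960, 710 and 508 CPM in MG livers, 1346, 901 and 681 CPM in AG livers, and 827, 654 and 789 CPM in GC livers, so that MG 3 was the lowest library for them and the highest for the clustered histone genes. Of the other cell type lists, erythroid genes had 1 of 7 tested members that fell in MG against GC, and no other list had a gene called in any comparison.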

How the data were processed

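The authors deposited 1 table of counts per gene for the 9 libraries, with total RNA depleted of ribosomal RNA per the labels' protocols. Builds GRCm38 and mm10 are named in the submitters' processing notes, and the sources used here name no aligner or counter. For the clustered histone genes the deposited counts equal unique exon reads. A further 81 per-library value columns were not used. The members and gene lists were chosen with earlier results of these data known.

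Counts were tested with edgeR 4.0.16 (R 4.3.3): filterByExpr by group, TMM scaling, a quasi-likelihood fit of 3 groups to 9 libraries (6 residual degrees of freedom), and Benjamini-Hochberg adjustment over 11884 genes. The biological coefficient of variation was 16.7%. Fold changes are fitted log2 values with edgeR's default prior count, and intervals are 95%. A prior count of 2 was used only for the log2 levels behind the correlations between libraries. CPM uses TMM-scaled library totals. Libraries held 6194521 to 8957331 counts, which limits precision for genes of few counts, and intervals for counts cover the spread between libraries. The script was tested on simulated data. DESeq2 1.42.0, limma-voom (limma 3.58.1), other scalings, filters, read classes and sets of libraries were alternatives. Same-numbered libraries deviated together with correlations between -0.28 and 0.48, so numbers were not taken to pair the samples.

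Genes named in full were the called members, the 8 with the highest mean CPM and, in each comparison, the 2 with the largest fold change each way, plus Hist1h2ab, and every member with 20 or more counts was named. In other lists, called genes or otherwise the 3 with the smallest p were named, and Slbp, H1f0 and Mki67 were added after their values were seen. Stem-loop letters came from GENCODE M21 transcripts and promoters from RefSeq (GRCm38.p6).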

Additional observations from a re-analysis of the deposited data

How the results depend on the processing

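The number of clustered histone genes called was 0 under all 22 alternatives in each of the 3 comparisons. The number of all genes called was less steady, and the cause was not tested. Testing every gene with a read gave 278 in MG against GC, 44 in AG against GC and 38 in MG against AG, DESeq2 gave 382, 115 and 97, and using only the 2 groups compared gave 373, 4 and 1. limma-voom gave 2 in MG against AG. With library number as a replicate block the counts were 158, 0 and 1, and no clustered histone gene was called with the block. Leaving out 1 library at a time gave 21 to 290 in MG against GC, 0 to 60 in AG against GC and 0 to 130 in MG against AG. Without GC 1, GC 2 and MG 2, the 3 libraries with the highest muscle sums, 0 genes were called in MG against GC, but that fit had 1 GC library, assumed to vary like the other groups, so the 0 says nothing of those libraries. Without MG 3 and AG 3 together, added after seeing the data and chosen for their high level of the clustered genes, 140, 54 and 81 were called. The summed level of the clustered genes was 1170 in MG, 1101 in AG and 1149 CPM in GC when total exon reads replaced counts.

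Some log2 fold changes in MG against GC changed sign. Leaving out 1 library at a time moved Hist1h1a between -0.37 and 0.97, Hist1h1c between -0.33 and 0.52, Hist1h4c between -0.021 and 0.25, Hist1h4a between -0.24 and 0.66 and Hist1h1d between -0.88 and 0.21. Without MG 3 and AG 3 together they were -0.37 for Hist1h1a, -0.33 for Hist1h1c, -0.022 for Hist1h4c and -0.24 for Hist1h4a. Hist1h1d was 0.22 without GC 1, GC 2 and MG 2. Hist1h3d in AG against GC ranged from -0.10 to 0.88. The other 511 values of named members kept their direction and stayed uncalled.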
